A study of Rattus norvegicus with 6 samples.

Results

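Bone morphogenetic proteins (BMPs) and activins, with the secreted and membrane proteins that hold them in check, were represented by 10 genes. They were the ligand genes Bmp2, Bmp4, Bmp6, Inhba and Inhbb, the decoy receptor Bambi, the secreted antagonists Grem1 and Fst, and the target genes Id1 and Id2. Every probe set with 1 of these symbols as its single platform symbol was taken, 14 of 15923 on the array. Of these, 12 probe sets of 9 genes passed the filter on signal, and both probe sets of Bmp2 did not. The 10 genes were chosen partly by the blood against marrow differences of these same 6 arrays, with earlier results known, so their differences, calls and adjusted p-values are given as a description of where they lie in the whole table and are no independent test.

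RNA came from mesenchymal stromal cells, which attach to plastic and grow out as spindle-shaped colonies when mononuclear cells of marrow or blood are cultured. The samples were 1 peripheral blood culture (labelled PBMSC) and 1 bone marrow culture (BMMSC) from each of 3 GFP transgenic rats, S4, S5 and S6. All 6 cultures carried the GFP transgene, grew in the same serum-containing medium without added factors named in the labels, and were taken at passage 2. Total RNA of each was hybridised to 1 Affymetrix RAE230A array. The strain, age and sex of the rats and the promoter of the transgene are not given in the labels. Levels below are deposited signals on the log2 scale, taken as log2 from their range, and differences are blood minus marrow of the same rat, with the SE of limma's fit with the rat as a term. The small number of arrays, 3 a group, sets the precision. A probe set was tested if its signal was above the median of the whole table, 8.18, on at least 3 of the 6 arrays; below that median no background level is known and folds are approximate.

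BMPs and activins are dimeric ligands of the transforming growth factor beta family that bind pairs of serine/threonine kinase receptors. BMP receptors phosphorylate SMAD1, SMAD5 and SMAD9, activin receptors SMAD2 and SMAD3, and the Id genes are direct targets of the BMP branch. Secreted antagonists bind the ligands before they reach a receptor, while Bambi resembles a receptor without the kinase. In bone marrow stroma these ligands are best known for driving osteoblast and cartilage formation, and antagonists such as gremlin for restraining it.

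The stretches 250 bases upstream of the RefSeq gene starts are shown for the 3 genes with the widest differences, Bmp6 and Bambi, which were higher together in blood cultures, and Grem1, which was lower. Capitals mark the GC-rich SMAD motifs GGCGCC and GGAGCC, searched on both strands (GGCTCC is GGAGCC on the other strand), and each line reads 5′ to 3′ on the strand of the gene.
Bmp6: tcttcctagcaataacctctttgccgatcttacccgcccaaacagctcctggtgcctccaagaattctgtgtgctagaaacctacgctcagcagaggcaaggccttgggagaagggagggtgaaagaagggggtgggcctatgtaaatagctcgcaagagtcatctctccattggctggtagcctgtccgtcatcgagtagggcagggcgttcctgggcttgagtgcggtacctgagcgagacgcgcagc
Bambi: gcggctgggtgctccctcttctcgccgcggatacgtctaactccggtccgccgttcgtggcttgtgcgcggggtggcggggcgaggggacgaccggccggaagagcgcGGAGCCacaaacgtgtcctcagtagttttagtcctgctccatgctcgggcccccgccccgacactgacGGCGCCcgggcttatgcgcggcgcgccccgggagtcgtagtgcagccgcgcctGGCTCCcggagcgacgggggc
Grem1: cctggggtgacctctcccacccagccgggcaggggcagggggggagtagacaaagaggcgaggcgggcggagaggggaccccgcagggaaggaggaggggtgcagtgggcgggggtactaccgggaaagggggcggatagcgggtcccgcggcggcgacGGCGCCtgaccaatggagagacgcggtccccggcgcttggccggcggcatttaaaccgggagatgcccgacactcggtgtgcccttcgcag
In RefSeq's GRCr8 assembly these are chr17:26675262-26675511, chr17:58821004-58821253 and chr3:120978320-120978569, all on the minus strand. The Bambi stretch held 1 GGCGCC, 74 bases upstream of the start, and 2 GGAGCC, 142 and 21 bases upstream. The Grem1 stretch held 1 GGCGCC, 91 bases upstream, and Bmp6 held neither motif. Members not shown, none past the threshold, also held them: Inhbb 2 GGCGCC and 2 GGAGCC, and Bmp4 1 GGAGCC. Inhba, Id1 and Id2 held neither. Of 33469 stretches of the same length, 8.69% held GGCGCC and 23.0% held GGAGCC. GC content was 56.4% for Bmp6, 72.4% for Bambi and 72.0% for Grem1, against a median of 51.2% over all stretches, so GC-rich letters are more frequent in the latter pair. Upstream sequence was matched for 8 of the 10 genes, not for Bmp2 and Fst, and a match is no evidence of binding.

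The blood culture of rat S5 stood apart from the other blood cultures. Over the probe sets kept, its values correlated at 0.907 and 0.889 with those of blood cultures S4 and S6, which correlated with each other at 0.972, and at 0.893 with marrow culture S4; these correlations are across probe sets, which are not independent. Values without rat S5 are therefore given beside the member results whose sign or call this rat changes, and beside some other genes. Such fits have 1 residual degree of freedom. Rat S5 was singled out from these same arrays, so calls gained without it are no independent test. Without rat S4 no probe set of the table passed. Without rat S6 the only member probe sets to pass were those of Bmp6, and Pcsk6 was the only other pathway gene. All 11 stromal marker genes, among them Vim at 12.72 to 12.95 and Col1a1 at 12.32 to 13.02, passed the filter, and none differed past the threshold over the 3 rats. An unadjusted p under 0.05 in limma was found for 5 of the 11, beside 14.1% of all tested probe sets. In each rat Pdgfra was lower in blood, by -1.93 ± 0.35 (limma adjusted p = 0.0681), and Nt5e higher, by 0.77 ± 0.15 (limma adjusted p = 0.0862). Eng was counted with the co-receptors and not among these genes. Without rat S5, 4 of the 11 were lower in blood past it, namely Thy1 (-2.40), Pdgfra (-2.35), Lum (-2.99) and Dcn (-2.10), with limma adjusted p of 8.48e-04 to 0.0074. In that fit 209 of 8123 probe sets were lower in blood past the threshold. None of these 4 genes passed without rat S4 or without rat S6, at a limma adjusted p of 0.281 to 0.976. Thy1, a defining surface marker, was at 7.02, 9.42 and 7.41 in blood and at 9.38, 7.68 and 9.84 in marrow cultures of rats S4, S5 and S6. The blood culture of rat S5 was thus the high one of its group for Thy1, and the marrow culture of that rat the low one.

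Among the 12 tested member probe sets, both of Bmp6 and that of Bambi were higher in blood cultures past an adjusted p of 0.05, and none was lower. Among all 8134 tested probe sets, 0.984% were higher, 1.17% lower and 2.15% called in all. The median difference of the 12 was 0.56, beside -0.01 over all tested probe sets. In 7 of the 12, blood and marrow values did not overlap, with blood higher in 6 and lower in 1. Over all tested probe sets this held for 18.5%, with blood higher in 7.13% and lower in 11.3%. Without rat S5, 6 member probe sets passed, beside 5.0% of 8123 probe sets. Bambi and probe set 1388920_at of Bmp6 passed the filter only through the blood cultures, where they were high. These counts follow from how the genes were chosen and support nothing.

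**Figure D1:**
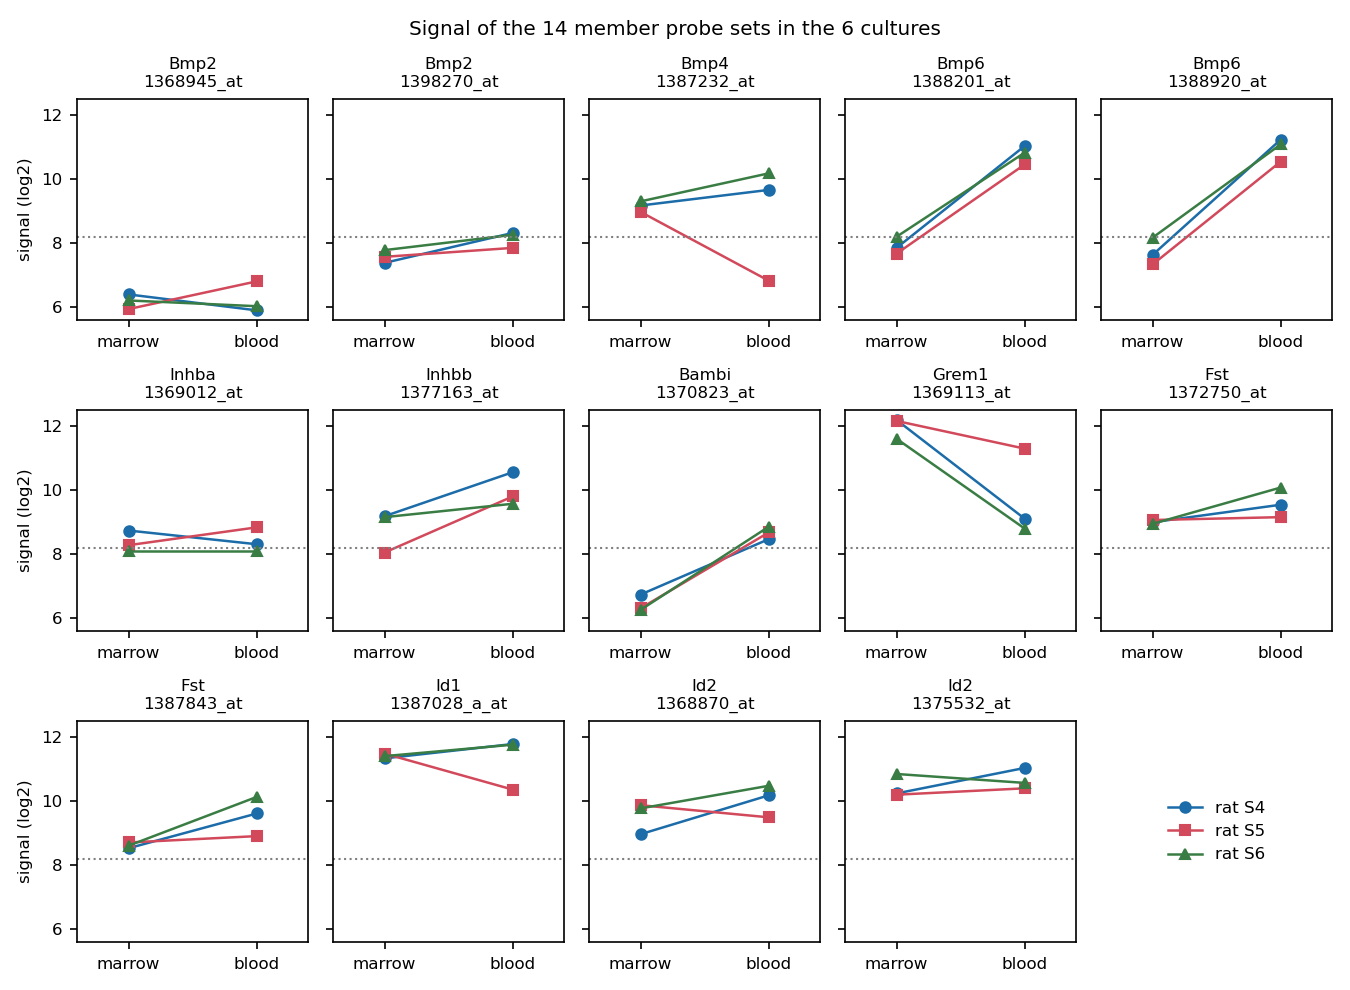
Deposited signal (log2, vertical axis) of each of the 14 member probe sets in the marrow and blood culture of each rat; a line joins the cultures of 1 rat and the dotted line is the table's median of 8.18. Both Bmp6 probe sets and Bambi rise along all 3 lines, Grem1 is lower in blood along all 3, and the blood culture of rat S5 departs from the other blood cultures for Bmp4 (6.81), Grem1 (11.30) and Id1 (10.36).

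Bmp6, a ligand that signals through BMP type I receptors and is known for bone formation and iron regulation, had 2 probe sets. On probe set 1388920_at the signal was 11.24, 10.55 and 11.09 in blood cultures of rats S4, S5 and S6, and 7.62, 7.32 and 8.16 in marrow cultures. The lowest blood culture lay far above the highest marrow culture, and the marrow values were all below the table's median. The difference was 3.26 ± 0.16 (SE, n = 3 rats; limma adjusted p = 0.0026), which is about 9.58-fold. On probe set 1388201_at the signal was 11.04, 10.46 and 10.83 in blood against 7.84, 7.66 and 8.19 in marrow cultures, a difference of 2.88 ± 0.15 (limma adjusted p = 0.0028). The probe sets thus gave the same order of cultures, with the S5 culture lowest in each group on both. Per rat, the difference was 3.62, 3.23 and 2.93 on the first and 3.20, 2.80 and 2.64 on the other. Without rat S5 the differences were 3.27 and 2.92, so this rat did not move them. Without rat S4 they were 3.08 and 2.72 and the adjusted p rose to 0.152 on both, a fit in which no probe set of the table passed.

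Bmp4, the ligand gene of early mesoderm and of osteoblast and fat cell commitment, was bright in marrow cultures and varied widely in blood. It stood at 9.17, 8.97 and 9.30 in marrow cultures of rats S4, S5 and S6. In blood cultures it was 9.66, 6.81 and 10.18. The blood culture of rat S5 was below every other culture, and the other blood cultures were above every marrow culture. The differences per rat, 0.49, -2.16 and 0.88, gave a mean of -0.26 ± 0.58 (95% interval -1.72 to 1.19, limma adjusted p = 0.921). Without rat S5 the difference was 0.69 (limma adjusted p = 0.123), of the other sign.

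Bmp2, the osteogenic ligand most like Bmp4, was dim on both probe sets and was left out of the main test. Probe set 1398270_at was at 8.31, 7.84 and 8.25 in blood against 7.37, 7.56 and 7.77 in marrow cultures. All blood values were above all marrow values, by 0.94, 0.28 and 0.48 per rat. In the fit without a filter, where 0.517% of probe sets were called, the difference was 0.57 ± 0.17 and did not pass (limma adjusted p = 0.344). Probe set 1368945_at was at 5.88, 6.79 and 6.01 in blood against 6.38, 5.92 and 6.19 in marrow cultures. The groups overlapped there, and the difference was 0.06 ± 0.29.

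Inhba and Inhbb encode the beta subunits whose dimers are activin A and activin B. Inhba was at 8.30, 8.83 and 8.10 in blood against 8.73, 8.27 and 8.10 in marrow cultures of rats S4, S5 and S6. It was lower in blood in rat S4, higher in S5 and equal in S6, with a mean difference of 0.04 ± 0.21 (95% interval -0.47 to 0.56) that turned to -0.22 without rat S5. Inhbb was at 10.56, 9.80 and 9.57 in blood cultures, and at 9.18, 8.04 and 9.15 in marrow cultures. All blood cultures were above all marrow cultures, with the low marrow value in rat S5. The differences were 1.38, 1.76 and 0.42, with a mean of 1.19 ± 0.26 (95% interval 0.53 to 1.85) that did not pass (limma adjusted p = 0.116).

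**Figure D2:**
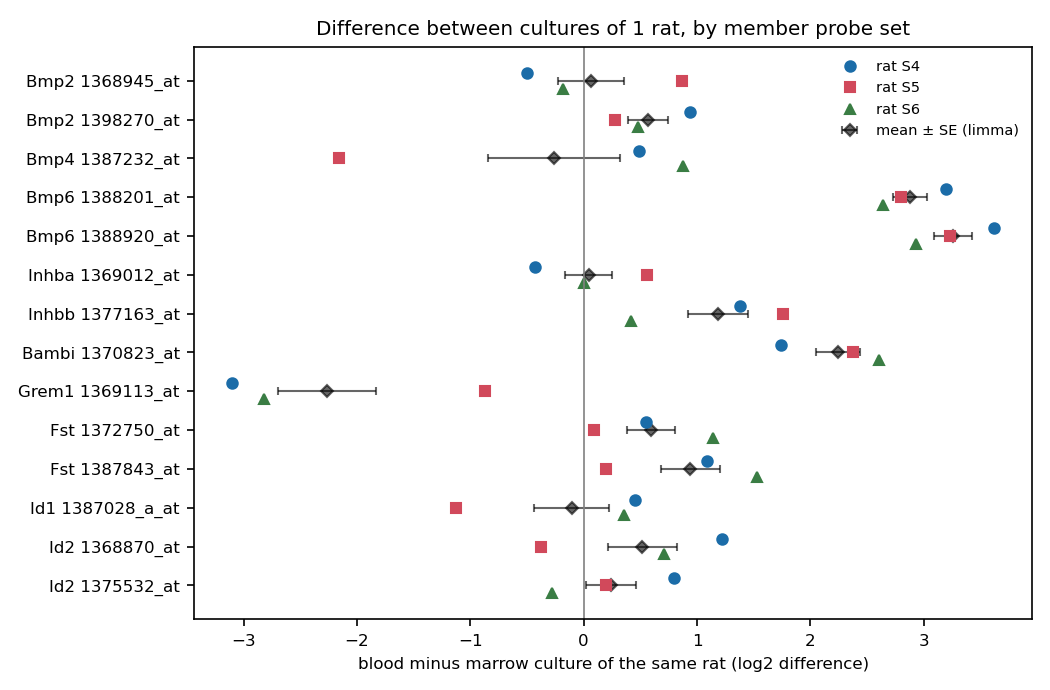
Blood minus marrow difference (log2, horizontal axis) for each member probe set, with 1 coloured point per rat and a black diamond for the mean ± SE of limma's fit. The 3 rats lie close together for Bmp6 and Bambi; for Bmp4 and Id1, rat S5 lies at -2.16 and -1.13, on the other side of 0 from the other rats.

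Bambi, the membrane pseudoreceptor that blocks signalling by BMPs, activins and TGF-beta, was seen with 1 probe set. It stood at 8.46, 8.67 and 8.85 in blood cultures of rats S4, S5 and S6, and at 6.72, 6.29 and 6.24 in marrow cultures. The spread within each group was under 0.5, far less than the gap between groups, and all marrow values lay below the table's median. The difference was 2.24 ± 0.19 (limma adjusted p = 0.0069), about 4.73-fold. Without rat S5 it was 2.17 (limma adjusted p = 0.0042). It did not pass without rat S6, at 2.06 (limma adjusted p = 0.0645), or without rat S4, at 2.50 (limma adjusted p = 0.152).

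Grem1, or gremlin, a secreted cystine-knot protein that binds Bmp2 and Bmp4, was the one member with a wide difference in the other direction. It was at 12.20, 12.17 and 11.61 in marrow cultures of rats S4, S5 and S6. In blood cultures it was 9.10, 11.30 and 8.79. Marrow and blood values did not overlap, but the blood culture of rat S5 was the closest to the marrow values. The differences of -3.10, -0.87 and -2.82 had a mean of -2.26 ± 0.43 (95% interval -3.35 to -1.18), a 4.80-fold lower signal that did not pass (limma adjusted p = 0.0809). Without rat S5 the difference was -2.96 and passed (limma adjusted p = 4.29e-04). It did not pass without rat S4, at -1.845 (limma adjusted p = 0.522), or without rat S6, at -1.985 (limma adjusted p = 0.362).

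Fst encodes follistatin, which binds activins almost irreversibly and some BMPs less tightly. On probe set 1387843_at it was at 9.61, 8.90 and 10.13 in blood against 8.52, 8.70 and 8.60 in marrow cultures. On probe set 1372750_at it was at 9.54, 9.15 and 10.08 in blood against 8.99, 9.06 and 8.94 in marrow cultures. On both, blood values were above all marrow values and the S5 blood culture was the lowest of its group, within 0.2 of the marrow culture of that rat. The differences were 0.94 ± 0.26 and 0.59 ± 0.21, and neither passed (limma adjusted p = 0.186 and 0.299). Without rat S5 they were 1.31 and 0.84, the former past the threshold (limma adjusted p = 0.0124) and the latter not (limma adjusted p = 0.0843).

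The target genes Id1 and Id2 encode inhibitors of DNA binding, helix-loop-helix proteins that hold back differentiation factors. Id1 was at 11.79, 10.36 and 11.77 in blood against 11.34, 11.49 and 11.41 in marrow cultures of rats S4, S5 and S6. As with Bmp4, the S5 blood culture was below every other culture and the other blood cultures were slightly above the marrow ones. The mean difference of -0.11 ± 0.33 (95% interval -0.92 to 0.71, limma adjusted p = 0.944) turned to 0.41 without rat S5 (limma adjusted p = 0.366). Id2 on its brighter probe set, 1375532_at, was at 11.04, 10.40 and 10.57 in blood against 10.24, 10.20 and 10.85 in marrow cultures. These overlapped, with a difference of 0.24 ± 0.22 (limma adjusted p = 0.752). On probe set 1368870_at it was at 10.18, 9.49 and 10.48 in blood against 8.96, 9.87 and 9.77 in marrow cultures, and again the S5 blood culture was the lowest of its group. That difference was 0.52 ± 0.30 (limma adjusted p = 0.560), and 0.97 without rat S5 (limma adjusted p = 0.0461).

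The change of a ligand was next set against that of an antagonist within each rat. Signals of different probe sets have no common scale, so the level of such a ratio has no meaning, and its change between the cultures of 1 rat shows only how unequally the pair moved. Each gene was read on its brightest probe set. The log2 ratio of Bmp6 to Grem1 was higher in blood by 6.30 in rat S4, 3.67 in rat S5 and 5.46 in rat S6, a mean change of 5.14 ± 1.34 (SD, n = 3). That of Bmp4 to Grem1 was higher by 3.59 and 3.70 in rats S4 and S6 and changed by -1.29 in rat S5. The change for Bmp2 to Grem1, with Bmp2 dim, was 4.04, 1.15 and 3.30. In rat S5 the ratio to gremlin was thus higher in blood for Bmp6 and lower for Bmp4.

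Against the decoy receptor the picture differed, because Bambi was also higher in blood. The log2 ratio of Bmp6 to Bambi changed by 1.46, 0.42 and 0.03, a mean of 0.64 ± 0.74 (SD, n = 3). That of Bmp4 to Bambi changed by -1.25, -4.54 and -1.73, lower in blood in all 3 rats. For activins and follistatin the rats did not share a direction. The ratio of Inhba to Fst changed by -0.98, 0.47 and -1.14, and that of Inhbb to Fst by 0.83, 1.67 and -0.72. The Bmp6 to Fst ratio was higher in blood in each rat, by 2.65, 2.71 and 1.50. No test was made on these ratios, since the pairs were formed from genes chosen with their differences known.

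**Figure D3:**
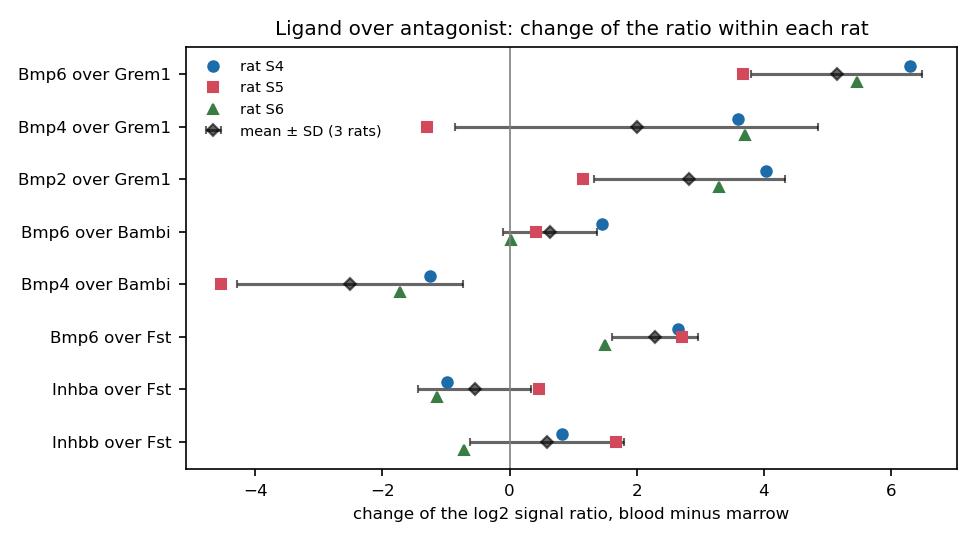
Change from marrow to blood (log2, horizontal axis) of the within-array signal ratio of a ligand gene to an antagonist gene, with 1 coloured point per rat and a black diamond for the mean ± SD of 3 rats. Bmp6 over Grem1 lies between 3.67 and 6.30 in all rats, while Bmp4 over Grem1 is at -1.29 in rat S5 and at 3.59 and 3.70 in the others.

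Other genes of the pathway were taken from 6 lists by role, 104 genes in all, which were not picked for how they moved in the table but were written with earlier results known. The array named 67 of them, and 39 passed the filter on signal. Of these 39 genes, 2 were higher in blood, 1 was lower and 36 did not pass, with a median difference of -0.04. An unadjusted p under 0.05 in limma was found for 11 of the 39 genes, and for 1148 of all 8134 tested probe sets (14.1%). The latter is a share of probe sets, and none was counted over genes. Among all 6109 measured genes, 0.868% were higher and 1.16% lower, with a median of -0.01. On the probe set that stood for each gene, the differences that passed belonged to 2 co-receptors and 1 protease.

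Among 6 receptors and co-receptors measured, 1 rose, 1 fell and 4 did not pass. Rgma, a membrane-anchored co-receptor that enhances BMP signalling, was at 8.24, 8.09 and 7.97 in blood against 9.96, 9.47 and 9.58 in marrow cultures of rats S4, S5 and S6. The groups were well apart, and the difference was -1.57 ± 0.13 (limma adjusted p = 0.0063). It did not pass without rat S4 or S6, at an adjusted p of up to 0.188. Eng, or endoglin, a co-receptor for TGF-beta and some BMPs, was at 10.52, 10.27 and 10.72 in blood against 8.25, 9.16 and 9.25 in marrow cultures. It rose by 1.62 ± 0.23 (limma adjusted p = 0.038), but kept its call in 4 of 10 alternatives, with an adjusted p of up to 0.283; it did not pass without a filter, without the rat as a term, with trimmed mean scaling or quantile normalization, or without rat S4 or S6. The type II receptor gene Bmpr2 and the type I receptor gene Acvrl1 were each higher in the S5 blood culture than in the other blood cultures. Acvrl1 was at 7.17, 8.35 and 6.76 in blood against 8.54, 7.81 and 8.56 in marrow cultures, a difference of -0.88 ± 0.45 (limma adjusted p = 0.480) that was -1.58 without rat S5 (limma adjusted p = 0.0055). Bmpr2 was at 8.01, 8.58 and 7.42 in blood against 8.98, 8.30 and 8.47 in marrow cultures, with -0.58 ± 0.28 (limma adjusted p = 0.457) and -1.01 without rat S5 (limma adjusted p = 0.0233). Bmpr1a, the type I receptor for Bmp2 and Bmp4, and Acvr2a, an activin type II receptor, differed by -0.04 ± 0.15 and 0.18 ± 0.12.

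Of 5 ligand processing proteases measured, 1 rose and 4 did not pass. Pcsk6, or PACE4, a convertase that cleaves precursors of this ligand family, was at 9.84, 8.55 and 9.55 in blood cultures. In marrow cultures it was 7.09, 5.87 and 7.80, all below the table's median. Pcsk6 thus passed the filter only through the blood cultures, where it was high. It also passed in the fit without a filter (limma adjusted p = 0.043), on marrow values with no known background. It rose by 2.39 ± 0.22 (limma adjusted p = 0.0095), but did not pass with the fluidics station or no term in place of the rat, or without rat S4, with an adjusted p of up to 0.302. Furin, the convertase best known for these precursors, differed by 0.23 ± 0.19 (0.48 without rat S5), and Bmp1, a procollagen protease that also cleaves the BMP antagonist chordin, by -0.43 ± 0.17 (limma adjusted p = 0.349).

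Of 6 other antagonists and extracellular modulators measured, none passed, with 3 at an unadjusted p under 0.05 in limma. Nbl1, a DAN family antagonist, was at 11.10, 10.90 and 11.05 in blood against 11.67, 11.37 and 11.70 in marrow cultures, lower in each rat, with a difference of -0.56 ± 0.12 (limma adjusted p = 0.101). Dcn, decorin, a matrix proteoglycan that binds TGF-beta and is also a stromal marker, was at 10.55, 12.89 and 10.44 in blood against 12.57, 12.83 and 12.63 in marrow cultures. The S5 blood culture lay at the marrow level, above the other blood cultures; the difference was -1.38 ± 0.45 and did not pass (limma adjusted p = 0.250), against -2.10 without rat S5 (limma adjusted p = 0.0013). Fstl1, a follistatin-like protein, differed by 0.36 ± 0.14. Neither of the 2 other ligand genes measured, Bmp3 and Gdf11, passed (0.09 ± 0.63 and -0.14 ± 0.22), and 0 of these had an unadjusted p under 0.05.

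Of 14 SMADs and intracellular regulators measured, none passed, with 4 at an unadjusted p under 0.05 in limma. The brightest probe set stood for each gene. Smurf1, a ubiquitin ligase for BMP SMADs, differed by 0.59 ± 0.14 (limma adjusted p = 0.146), Smad3 by -0.58 ± 0.16 (limma adjusted p = 0.188) and Skil, a SMAD corepressor, by 0.38 ± 0.12 (limma adjusted p = 0.240). The receptor SMADs of the BMP branch that were measured, Smad1 and Smad5, differed by -0.17 ± 0.12 and -0.19 ± 0.12. Smad7, an inhibitory SMAD, differed by 0.02 ± 0.15 on its brightest probe set. On 1368896_at, which did not stand for the gene, it differed by 0.99 ± 0.14, past the threshold (limma adjusted p = 0.0341). Blood and marrow values overlapped on 1368896_at. It did not pass without a filter, or without rat S4 or S6, at a limma adjusted p of up to 0.302. The signal there was 10.05, 9.14 and 10.18 in blood against 9.24, 8.22 and 8.93 in marrow cultures. A dimmer probe set below the filter, 1368897_at, was at 8.35, 7.24 and 8.06 in blood against 6.88, 6.71 and 7.90 in marrow cultures, higher in each rat, with a difference of 0.72 ± 0.28 that did not pass without a filter (limma adjusted p = 0.443). The brightest probe set of Smad7 thus differed from the others.

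Of 6 other BMP target genes measured, none passed and 0 had an unadjusted p under 0.05 in limma. Id3, a relative of Id1, was at 12.50, 11.28 and 12.42 in blood against 12.41, 12.36 and 12.64 in marrow cultures. Its blood culture of rat S5 was below every other culture, as for Id1, and the difference was -0.40 ± 0.24 (limma adjusted p = 0.562), or -0.065 without rat S5. Atoh8, a helix-loop-helix factor, was at 9.53, 7.82 and 9.54 in blood against 7.95, 8.19 and 8.42 in marrow cultures. The S5 blood culture was again the lowest of all; the difference was 0.78 ± 0.37 (limma adjusted p = 0.445), and 1.35 without rat S5 (limma adjusted p = 0.0116). Msx1, a homeobox target, differed by 0.36 ± 0.20, or by 0.085 without rat S5.

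**Figure D4:**
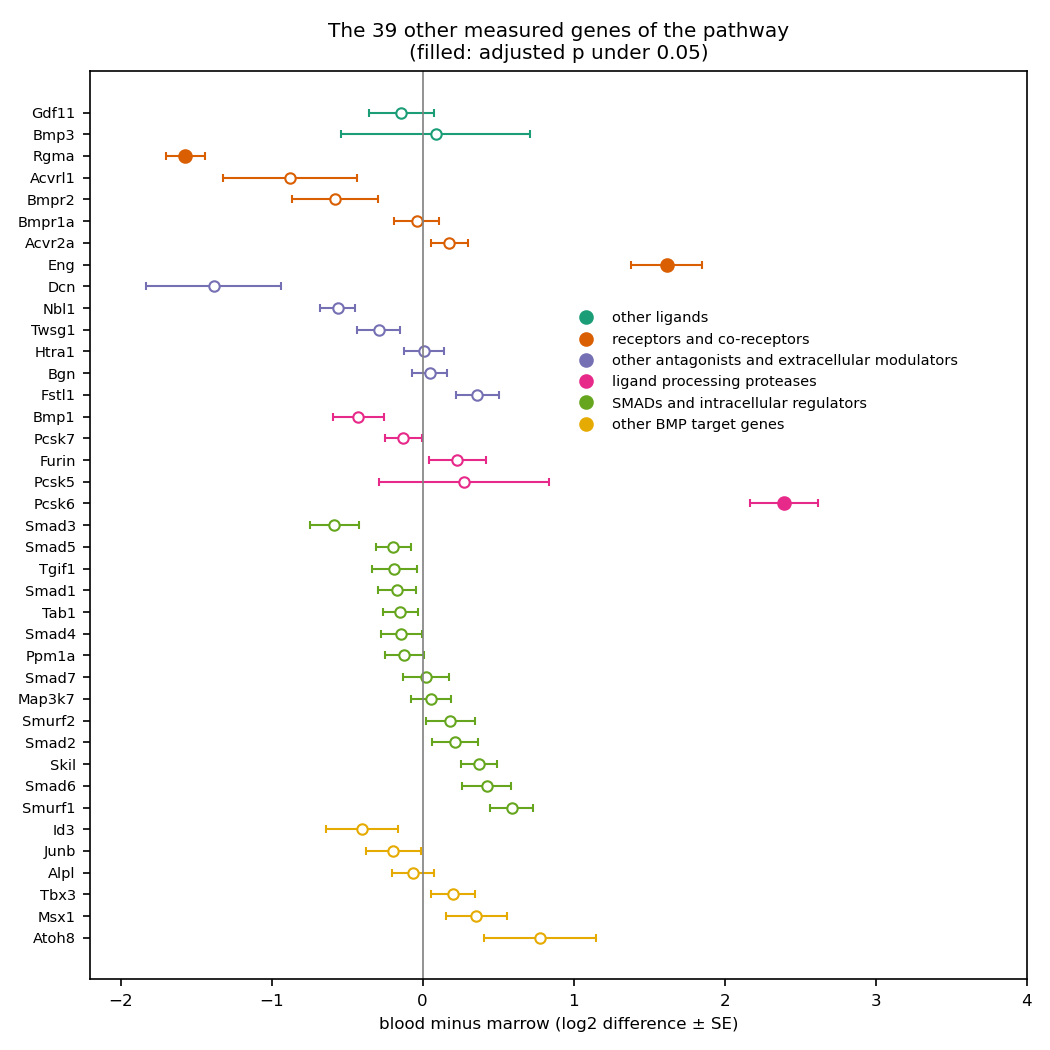
Blood minus marrow difference ± SE (log2, horizontal axis) of the 39 other pathway genes measured, coloured by role, with filled points where limma's adjusted p was under 0.05. The filled points are Rgma at -1.57, Eng at 1.62 and Pcsk6 at 2.39. On the 1 probe set shown for each gene, all 14 SMADs and intracellular regulators lie within 0.6 of 0.

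Genes whose pattern over the 6 arrays was most like that of Bmp6, Bambi or Grem1 were ranked by Pearson's r with the brightest probe set of each. With 6 arrays in 2 groups such r are high for any gene with a like group difference, and they are given as a description. Nearest to Bmp6 were Kiaa1671 (r = 0.995), Ddah1, which breaks down methylated arginines (0.991), and Rpp25, a ribonuclease P subunit (0.990); 60 of 6904 probe sets, or 0.869%, were above 0.95. Nearest to Bambi were Ddah1 (0.986), Casp12, a caspase gene (0.979), and Pcgf5, a Polycomb group gene (0.978). Nearest to Grem1 were Fbxl5, an iron-sensing ubiquitin ligase subunit (0.994), C13h1orf21 (0.994) and the hypoxia factor Hif1a (0.992). The genes nearest to Grem1 differed less between groups than it did, with Fbxl5 at -0.57 ± 0.15 and Hif1a at -0.51 ± 0.14.

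Markers of other cell types were measured beside these genes, since fewer cells of a type and less RNA per cell cannot be told apart in such cultures. Of 16 macrophage and leukocyte genes, 14 were on the array and 9 passed the filter, none differing past the threshold. The median difference of the 9 was 0.40, with 8 above 0, beside a median of -0.01 over all measured genes. Some were bright in both groups, with Lyz2 at 10.71 to 12.51 and Cd68 at 9.64 to 11.11 over the 6 cultures. Ptprc, Csf1r, Itgam, Coro1a and Cd74 were below the filter. The summed linear signal of the 14 genes was 7821, 11845 and 17446 in marrow and 16868, 11849 and 16572 in blood cultures of rats S4, S5 and S6. That sum was higher in blood in rat S4, nearly the same in both cultures in rat S5 and lower in blood in rat S6. The differences in these rats were 3.62, 3.23 and 2.93 for Bmp6 (1388920_at) and 1.74, 2.38 and 2.61 for Bambi. Of 12 endothelial genes, 9 were on the array and 2 passed the filter, neither differing past the threshold. On their brightest probe sets, Flt1 was at 8.68 to 8.87 and Egfl7 at 8.43 to 8.94 over the 6 cultures. Pecam1 was at 5.32 or less on each array. The summed signal of the endothelial genes was 1961 to 2391 in marrow and 2226 to 2450 in blood cultures. Of 10 mesothelial and epithelial genes, 7 were on the array and 2 passed the filter, with summed signals of 1335 to 1842 in marrow and 1546 to 1695 in blood cultures. On probe set 1377223_at Wt1 rose by 3.83 ± 0.19, and Msln differed by -1.24 ± 0.11, both past the threshold. That Wt1 probe set passed the filter only through the blood cultures, where it was high. The other Wt1 probe set, 1369695_at, was too dim for the filter and differed by only 0.45 ± 0.13. When dim probe sets were included, its limma adjusted p was 0.318, above the threshold. The size of the Wt1 rise thus rests on 1377223_at. Both Krt8 and Krt19 were below the filter. The part of these cell types in the differences of Bmp6, Bambi and Grem1 was not tested.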

How the data were processed

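The authors deposited a value table of 6 arrays, read here as log2 signal from its range; GCOS, the array maker's software, is the only tool the submitters' processing notes name. Summarisation, background correction, normalization and log base are not stated there or in the labels, so folds rest on that reading. Array medians were 8.12 to 8.22, 86 values were empty and 94 were 0. Instrument setting files were read only for batches: fluidics station 1 held both cultures of rats S4 and S5, and station 2 those of S6. The fluidics modules were 2, 4 and 2 for marrow and 1, 3 and 1 for blood cultures of rats S4, S5 and S6. Marrow and blood cultures shared no module, so group and module cannot be told apart.

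Values were used as deposited. After leaving out 57 control probe sets, 8135 were kept and 8134 could be tested. Limma 3.58.1 (R 4.3.3; lmFit, eBayes, two-sided) compared blood with marrow cultures with the rat as a block, and Benjamini-Hochberg adjustment ran over all probe sets tested. The pairing comes from the labels. Deviations of same-rat cultures correlated at -0.29, 0.30 and 0.33. For marrow and blood cultures of different rats the range was -0.474 to 0.418, so these correlations do not single out the labelled pairs. Of the probe sets, 12789 had 1 platform symbol, 312 several and 2822 none; the brightest kept probe set stood for a gene in list counts. The fit was tested on simulated data. Members and lists were chosen with earlier results of these data known. Named were all member probe sets, each listed pathway gene past the threshold with up to 3 further genes per list, and 3 genes most like Bmp6, Bambi and Grem1; Smad1, Smad5, Smad7, Bmpr1a and marker genes were named in addition, chosen after their values were seen. Alternatives were the filter, 3 normalizations, the block, the variance prior, the station and each rat left out. Tables were made in Python 3.11.15 with numpy 2.4.6 and pandas 2.3.3, figures with matplotlib 3.10.9.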

Additional observations from a re-analysis of the deposited data

How the results depend on the processing

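The calls of both Bmp6 probe sets held in 9 of 10 alternatives and that of Bambi in 8 of 10, and no alternative turned their direction; all losses came from leaving out a rat. Over the fits that leave out 1 rat, each with 1 residual degree of freedom, 0 to 197 probe sets were higher and 0 to 209 lower, with 0 to 6 member probe sets and 0 to 7 other pathway genes past the threshold. The lowest counts are those without rat S4, where 769 probe sets had an unadjusted p under 0.05, and the highest those without rat S5. Over these fits the difference of Bmp4 ran from -0.83 to 0.69, Inhba from -0.21 to 0.28, Id1 from -0.39 to 0.41, Id2 (1375532_at) from -0.04 to 0.50, Gdf11 from -0.44 to 0.075 and Bmp3 from -0.70 to 1.06. Without a filter on signal the blood cultures had 42 higher and 40 lower probe sets, against 80 and 95. Lower probe sets numbered 49 with arrays scaled to a common trimmed mean (their trimmed means differed by up to 10.2%), 59 with median centring and 50 with quantile normalization. With the fluidics station in place of the rat 51 were higher. Without the replicate block, 1 other pathway gene passed, Rgma, against 3, and the 3 member probe sets past the threshold were unchanged in number. The causes were not tested. Signals below the table's median, as on most arrays for Bmp2 and in marrow for Bambi and, on all but 1 array of 1 probe set, Bmp6, have no known background, which limits their folds.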

Other observations

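Noggin and a dim probe set of Gdf11 fell under the filter on signal and were picked out after their values were seen. Nog, a secreted antagonist that binds Bmp2, Bmp4 and other BMPs, was at 8.41, 6.30 and 9.24 in blood cultures of rats S4, S5 and S6. In marrow cultures it was 5.52, 5.30 and 5.87. Blood values were above all marrow values and lowest in rat S5, with a difference of 2.42 ± 0.48 (adjusted p = 0.174, limma with all probe sets kept, not past the threshold). Gdf11, a ligand close to myostatin, was at 8.33, 7.13 and 7.78 in blood cultures on probe set 1393697_at. In marrow cultures it was 2.12, 2.51 and 2.82, so dim that no difference or fold is given. It passed with all probe sets kept (limma adjusted p = 0.0230), a call that rests on marrow values with no known background. The brighter probe set of Gdf11 differed by -0.14 ± 0.22.

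In the blood culture of rat S5, Bmp4 differed from the mean of the other blood cultures by -3.11 and Id1 by -1.42. Grem1 differed from that mean by 2.36, Bambi by 0.015, and Bmp6 by -0.47 and -0.61 on its 2 probe sets. Blood cultures S4 and S6 differed from each other by 0.54 or less on all member probe sets except Inhbb, where S4 was 0.99 higher.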
